A study of Mus musculus with 8 samples.

Results

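The 52 genes described here encode the DNA replication machinery and its S phase supply: origin licensing factors, the replicative helicase and its activators, polymerases, the sliding clamp and its loader, nucleotide synthesis enzymes, cyclin E, E2F factors and proteins that copy chromatin. They were chosen by name, as the rows of the deposited table whose Ensembl identifier maps to 1 of the 52 symbols, from 55421 gene identifiers in all. Every member was found, and every member passed the filter on low values, so that 52 of the 13933 genes tested are members. RNA was sequenced from primary macrophages that were differentiated from mouse bone marrow and taken at day 7, in 4 wild-type (WT) libraries and 4 libraries of the genotype Baf60a KO. The series title names C57 mice, and no agent other than the differentiation itself is given for either group. The gene behind Baf60a is Smarcd1, which encodes a subunit of SWI/SNF chromatin remodelling complexes. The way of deletion, the age of the mice and whether libraries came from separate animals are not given in the labels, so a p-value reflects only how far these libraries spread, and part of that may be technical.

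Replication begins when the origin recognition complex, with Cdc6 and Cdt1, loads the ring-shaped MCM helicase onto DNA in G1. Cyclin E with its kinase, together with other kinases, then turns loaded helicases into moving forks by adding Cdc45 and GINS, and the polymerases follow on the clamp Pcna. Most of these genes are switched on by activating E2F factors before S phase and are restrained by E2f7 and E2f8. Macrophage precursors divide in culture under colony-stimulating factor 1 and leave the cycle as they mature. A whole-culture measurement cannot tell fewer cycling cells from less RNA of these genes per cell.

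Values are TPM (transcript abundances per length, given as parts of 1 fixed total for every library), so levels can be compared between genes while how deeply each library was sequenced is unknown. Smarcd1, the targeted gene, was at 16.2, 14.3, 14.8 and 14.01 TPM in the WT libraries and at 10.8, 10.3, 10.8 and 9.91 in the KO libraries, by replicate number (limma adjusted p = 0.00756), lower in each KO library but present. The 12 macrophage markers all had mean TPM over 1, 5 rose and 1 fell (Lyz2, lysozyme, from 3993 ± 248 to 1927 ± 110.1 TPM). By log2 fold change, 10 of the 12 were higher in KO and 2 were lower. Their summed TPM was 7026 to 8118 in WT and 5991 to 6369 in KO. Lyz2 was the most abundant of these markers, so the lower sum does not describe most of the others. Of 11 fibroblast and stromal markers 10 had mean TPM over 1 and 6 rose, and their summed TPM was 5607 to 6133 in WT and 6935 to 7257 in KO. That of 6 endothelial markers was 33.1 to 42.5 and 42.6 to 49.2. None of these 3 sums overlapped between groups, and their part in the results on replication genes was not tested. The summed TPM of 7 progenitor markers was 9.77 to 12.4 in WT and 9.85 to 12.3 in KO. Stromal cells can divide as well, and which cells carry the replication transcripts was not tested. The share of TPM on processed pseudogenes was about 12% in WT replicates 3 and 4 and 6.78% to 8.38% elsewhere.

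Between the groups, replication genes differed little in level, and most were slightly lower in KO. The log2 fold change, KO minus WT on log2(TPM + 1), was below 0 in 39 of 52 members (75.0%), against 42.5% of all genes tested. The median of the members was -0.09, against 0.03 over all genes tested. At a Benjamini-Hochberg adjusted p under 0.05 in limma, Pole, the catalytic subunit of DNA polymerase epsilon, fell and Pcna, the sliding clamp, rose. These are 2 of 52 members (3.85%), where 5.61% of all genes tested were called (4.40% rose and 1.21% fell). The share of members called was thus no larger than the background on TPM as deposited, but it was larger under each of the 3 other scalings described further on (17.3%, 11.5% and 9.62% of members, against 6.60%, 4.98% and 6.60% of all genes). In 9 members (17.3%) every KO library was below every WT library, where 3.96% of all genes tested showed this, and in 5 members (9.62%) every KO library was above every WT library, against 11.9%. Before adjustment 17 members (32.7%) had p under 0.05, against 22.3% of all genes. The plot of fold changes orders the members by role.

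**Figure D1:**
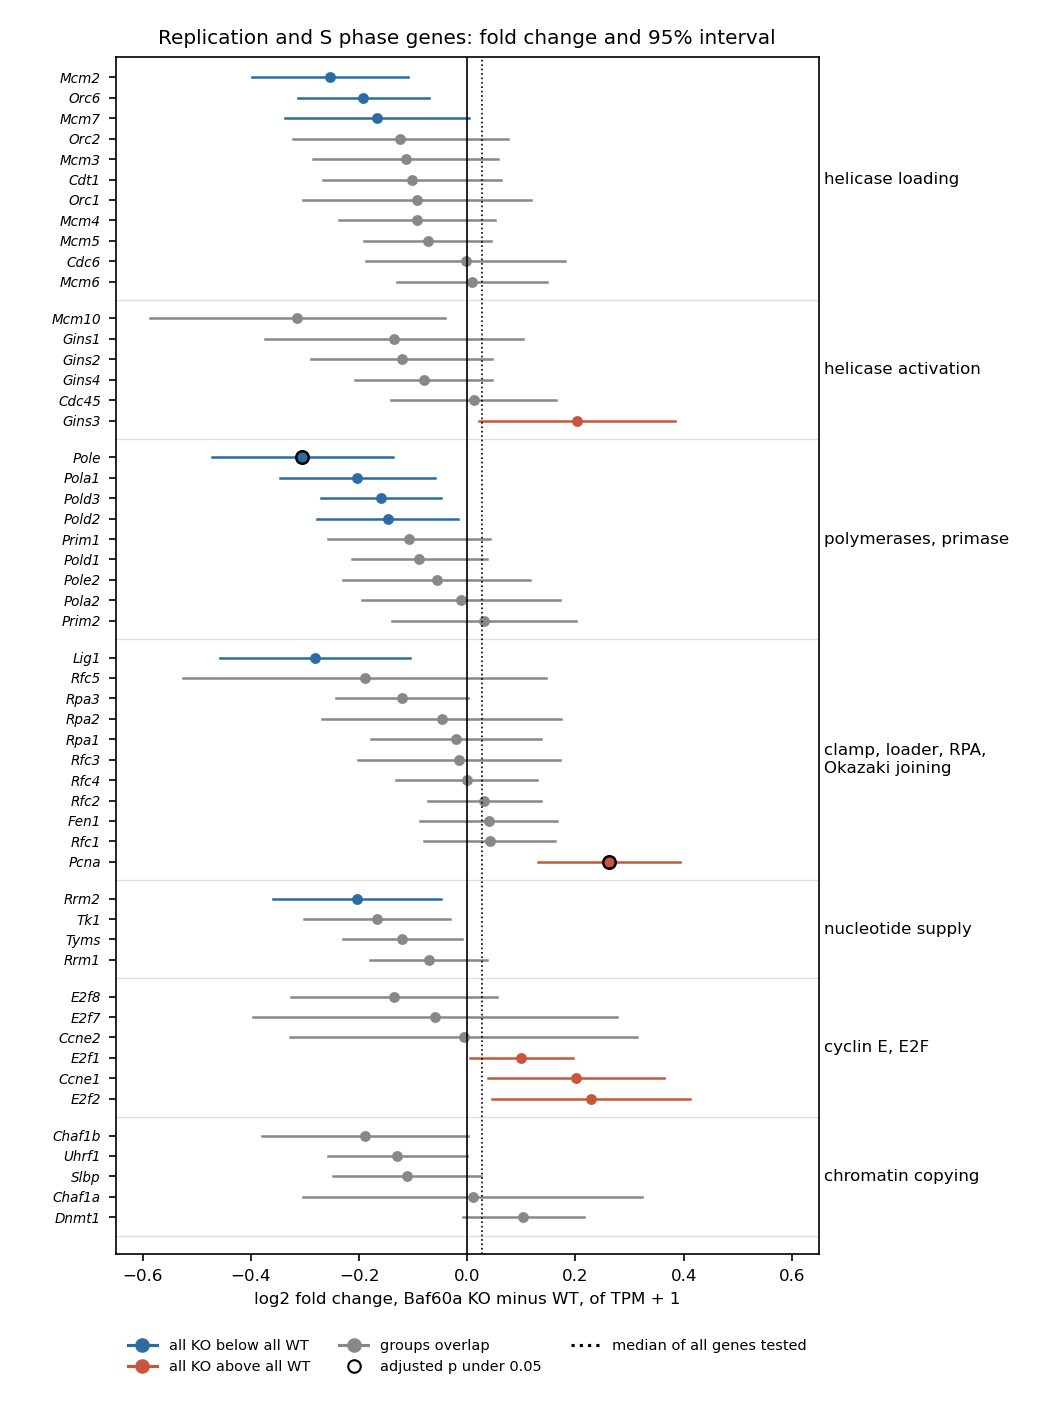
Log2 fold change of each of the 52 members (x axis, KO minus WT, with 95% interval from limma) by role, with members whose groups do not overlap in blue (KO lower) and red (KO higher) and a black outline on the 2 called. Of the 52 points 39 lie below 0, the lowest is Mcm10 at -0.31 and the highest Pcna at 0.26; the dotted line marks the median of all genes tested, 0.03.

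Replication genes are known as targets of E2F factors, so the promoters of the members were searched for the letters these factors bind. The RefSeq promoter table (build GRCm38.p6, the assembly of mm10) held windows of 300 bases, 250 before and 50 after an annotated start, for 44 of the 52 members. The E2F core was searched in the form TTGGCGC, the form TTCCCGC, the form TTCGCGC or the form TTGCCGC on both strands, where forms can overlap. It was present in windows of 29 of the 44 members (65.9%) and of 10.9% of the 27025 genes with a window. CCAAT, the letters bound by NF-Y, was present in 65.9% of members and 41.1% of all genes. TTTGAA, the CHR letters known from mitotic genes, was present in 18.2% of members and 20.2% of all genes, and in 10 of the 16 mitotic genes listed further on that had a window. The letters were found in windows of genes of both directions, before or after the annotated start. The E2F core was found in 5 of 8 members with all KO libraries lower, in 2 of 5 with all KO libraries higher and in 22 of 31 whose groups overlapped. The median log2 fold change was -0.07 in members with the core and -0.12 in those without. The 150 bases before an annotated start are given 5′ to 3′ for Pola1 (chrX:93632156-93632305, minus strand), Mcm7 (chr5:138171267-138171416, minus strand) and Rrm2 (chr12:24708104-24708253, plus strand), all lower in KO, and for E2f2 (chr4:136172124-136172273, plus strand), higher in KO. They are examples of how the same letters stand, or are missing, and were not drawn to represent either direction. Before at least 1 annotated start each of Mcm2, Pold2 and Lig1, also lower in KO, the 150 bases held 0 E2F cores and 0 CCAAT. Those stretches are not written out. The stretches of Pola1 and E2f2 lie outside annotated transcripts in GENCODE M21. That of Mcm7 lies before the second of its 2 annotated starts, within the span of the Mcm7 gene. Annotated transcripts span all 150 bases of it, and 0 are annotated as untranslated. The stretch of Rrm2 ends with 13 bases that a longer transcript covers. Capitals mark the E2F core or CCAAT on either strand.
Pola1: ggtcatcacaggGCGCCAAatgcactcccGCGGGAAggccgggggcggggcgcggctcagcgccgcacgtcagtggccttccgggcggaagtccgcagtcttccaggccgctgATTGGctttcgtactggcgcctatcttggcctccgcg
Mcm7: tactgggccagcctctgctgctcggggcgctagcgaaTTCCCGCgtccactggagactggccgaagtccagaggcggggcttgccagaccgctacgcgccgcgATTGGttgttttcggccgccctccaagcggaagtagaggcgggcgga
Rrm2: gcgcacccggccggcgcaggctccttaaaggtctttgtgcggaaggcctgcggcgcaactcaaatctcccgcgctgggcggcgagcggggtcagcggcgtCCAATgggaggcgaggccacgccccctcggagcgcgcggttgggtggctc
E2f2: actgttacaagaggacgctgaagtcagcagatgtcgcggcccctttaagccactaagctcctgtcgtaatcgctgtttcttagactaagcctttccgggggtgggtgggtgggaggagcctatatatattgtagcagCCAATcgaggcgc
The Pola1 stretch holds 2 E2F cores and 1 CCAAT, and that of Mcm7 holds 1 of each. Those of Rrm2 and E2f2 hold 1 CCAAT and no E2F core, which these genes carry elsewhere in their windows. In E2f2 the core stands after the annotated start, at base 41. A match describes letters only, and no binding was measured.

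Levels of the members spanned a wide range. In WT, mean TPM was under 5 in 8 members, from 5 to 50 in 39 and 50 or more in 5. Pcna alone made up 26.9% of the summed TPM of the members in WT and 31.9% in KO, at 5.30 times the level of Rfc2, the next most abundant member. Subunits of 1 complex were not at 1 level. In the MCM ring the WT means ran from 14.5 TPM (Mcm4) to 39.6 (Mcm6), 2.73-fold, and in GINS, a complex of 4 proteins, from 2.8 (Gins3) to 38.3 (Gins2), 13.7-fold. The 3 polymerase delta subunits among the members lay within 1.38-fold of each other, and the 2 of polymerase epsilon within 1.07-fold. Subunits of these enzymes that are not members were more abundant in WT: Pold4 at 102.2 TPM, Pole3 at 26.1 and Pole4 at 45.1.

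**Figure D2:**
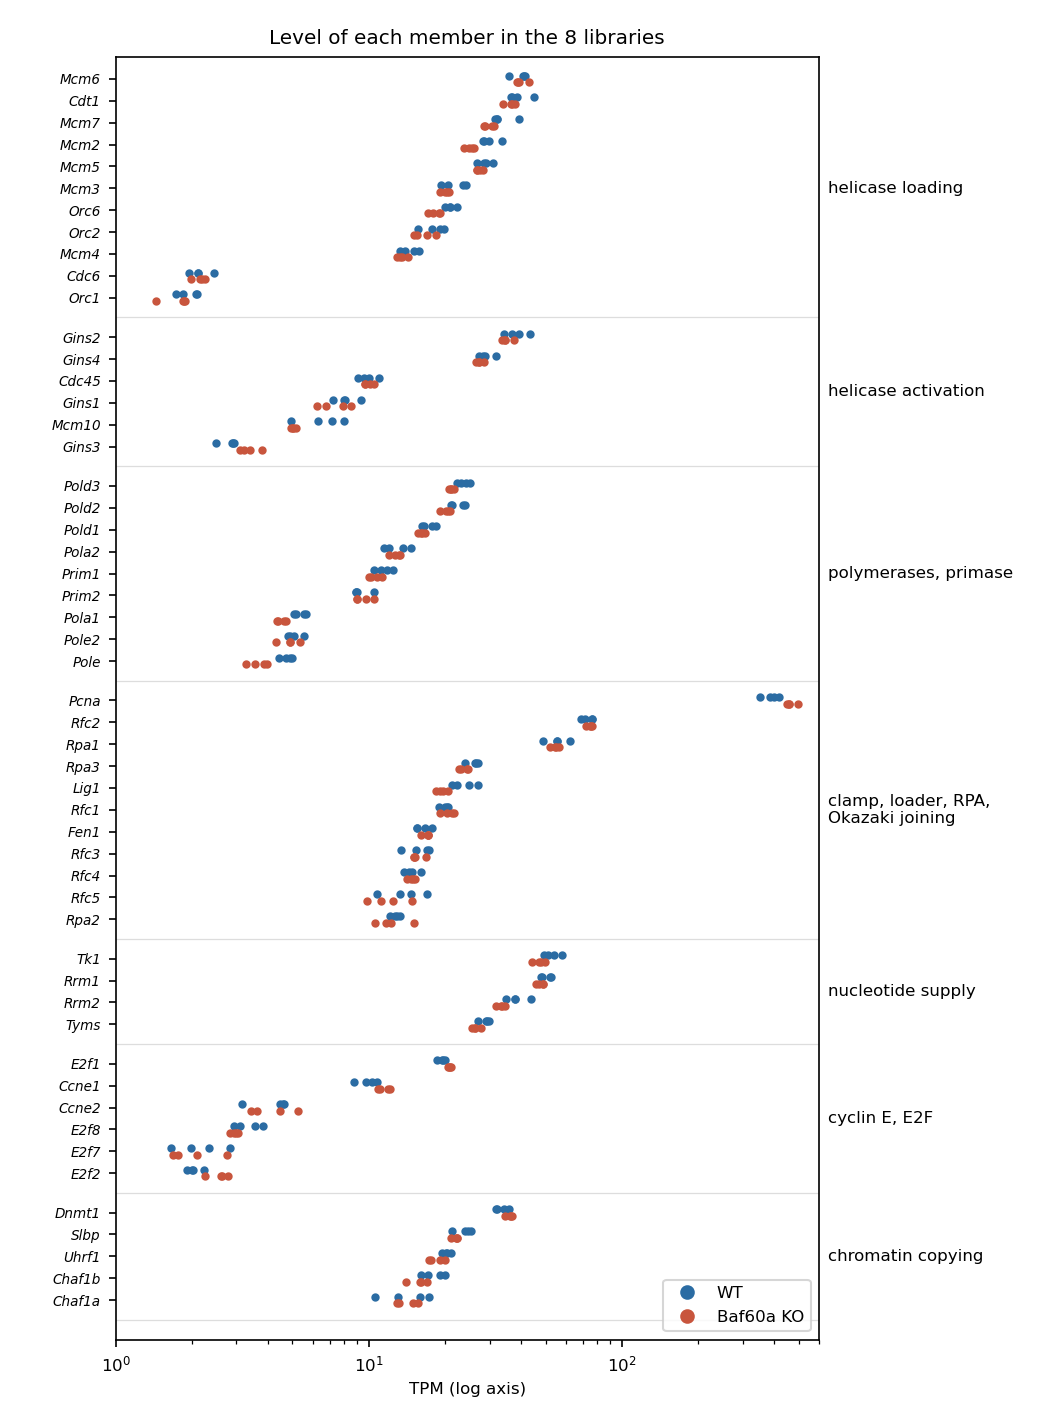
TPM (x axis, log scale) of each member in the 4 WT libraries (blue) and the 4 KO libraries (red), by role and ordered by WT mean. Pcna stands apart at 350.3 to 493.7 TPM, Rfc2 follows at 68.7 to 76.5, and Orc1, Cdc6, E2f7 and E2f2 lie between 1.44 and 2.83.

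Of the 11 genes for helicase loading, 10 had a fold change below 0 and 0 passed the limma test. An unadjusted p under 0.05 was found in 2 (18.2%), against 22.3% of all genes tested. Mcm2, a subunit of the ring that also carries histones, was at 29.9, 33.7, 28.2 and 28.6 TPM in WT libraries 1 to 4 and 25.6, 24.9, 23.7 and 25.9 in KO libraries 1 to 4. All KO values lay below all WT values, and WT replicate 2 was the highest. The means were 30.1 ± 2.51 and 25.04 ± 1.01 TPM (SD, n = 4, as for all means given as mean ± SD, WT first), and the log2 fold change of -0.25 (SE 0.0635, limma adjusted p = 0.0541) missed the threshold. Orc6, the smallest subunit of the origin recognition complex, was at 21.01, 22.2, 20.9 and 19.98 TPM in WT and 17.2, 19.1, 18.9 and 17.9 in KO, again without overlap (-0.19, SE 0.0535, adjusted p = 0.074 by limma). Mcm7 was at 32.2, 39.3, 31.5 and 32 TPM in WT, where replicate 2 stood above the others, and at 28.7, 28.6, 31.3 and 30.7 in KO (-0.17, adjusted p = 0.233). The other ring subunits overlapped between groups. Mcm6, the most abundant gene of this role, was at 40.98, 41.3, 35.7 and 40.6 TPM in WT and 38.4, 39.3, 43.02 and 38.7 in KO (0.01, SE 0.0609, adjusted p = 0.959). Mcm3, Mcm4 and Mcm5 had fold changes from -0.11 to -0.07. Cdt1, which brings the helicase to origins, was at 39.2 ± 4.03 and 36.4 ± 1.66 TPM. Cdc6, which works with it, was at 2.16 ± 0.21 and 2.15 ± 0.114 (-0.003). Orc1, the ATPase that is made anew in each cycle, was the least abundant, at 2.1, 2.08, 1.74 and 1.84 TPM in WT and 1.87, 1.44, 1.85 and 1.88 in KO (-0.09, SE 0.0924, limma adjusted p = 0.626). Orc2 was at 18.1 ± 1.83 and 16.6 ± 1.52 TPM.

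Helicase activators went in both directions, 4 of 6 below 0, and 0 passed the limma test. An unadjusted p under 0.05 was found in 2 (33.3%), against 22.3% of all genes tested. Mcm10, which helps the loaded helicase to open DNA, had the lowest fold change of all members, -0.31 (SE 0.12, limma adjusted p = 0.166), with a large error. It was at 7.18, 6.29, 4.92 and 8.01 TPM in WT and 5.04, 5.16, 5.01 and 4.95 in KO. The KO libraries were nearly equal while WT replicate 3 sat below all of them, and without that library the gene was called (-0.43, adjusted p = 0.0352). Gins3, the least abundant subunit of GINS, was at 2.88, 2.5, 2.9 and 2.93 TPM in WT and 3.39, 3.11, 3.78 and 3.23 in KO, every KO library higher (0.20, SE 0.0796, adjusted p = 0.177 by limma). Gins2, the most abundant, was at 34.2, 39.2, 36.7 and 43.2 TPM in WT and 37.6, 34.5, 34.4 and 33.7 in KO (-0.12, SE 0.0733, adjusted p = 0.376). Gins1 and Gins4 were at -0.14 and -0.08, with overlap. Cdc45, which completes the active helicase, was at 9.91 ± 0.837 and 9.98 ± 0.417 TPM, a log2 fold change of 0.01 with a 95% interval from -0.14 to 0.16.

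Of the 9 polymerase and primase genes, 8 were below 0. In 4 of the 9 (44.4%) every KO library was below every WT library, against 3.96% of all genes tested. That share was 27.3% in helicase loading, 25% in nucleotide supply and 9.09% in the clamp and Okazaki fragment role. It was 0% in helicase activation, in cyclin E and E2F factors and in chromatin copying. Pole, which copies the leading strand (chromosome 5, 110286306 to 110337474, mm10), was at 4.43, 4.87, 4.73 and 4.99 TPM in the WT libraries and 3.87, 3.54, 3.28 and 3.96 in the KO libraries. The highest KO value stayed below the lowest WT value, and the means of 4.75 ± 0.241 and 3.66 ± 0.312 TPM gave a ratio of 0.77. It fell by 0.31 on the log2 scale (SE 0.0736, limma adjusted p = 0.0487), a call that ended without each of the 8 libraries in turn (adjusted p from 0.0589 without WT replicate 1 to 0.122 without WT replicate 4). Pole2, its partner subunit and at nearly the same level, was at 5.08 ± 0.327 and 4.86 ± 0.427 TPM with overlap (-0.06, 95% interval -0.23 to 0.12); the difference between the fold changes of these subunits was not tested.

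Pola1, the catalytic subunit of polymerase alpha, which starts each new strand with primase, was at 5.17, 5.65, 5.06 and 5.53 TPM in WT and 4.61, 4.39, 4.33 and 4.73 in KO (-0.20, SE 0.063, limma adjusted p = 0.0996). Pold3, a subunit of the lagging-strand polymerase delta, was the most abundant gene of the role. Its values were 24.2, 23.2, 22.4 and 25.2 TPM in WT and 21.1, 21.1, 20.7 and 21.7 in KO (-0.16, limma adjusted p = 0.0971). Pold2, the second subunit of that enzyme, was at 23.97, 23.5, 21.4 and 21.2 TPM in WT and 20.2, 20.6, 19.1 and 21.01 in KO (-0.15, adjusted p = 0.173). These 3 genes had no overlap between groups and did not pass the test. Pold1, the catalytic subunit, overlapped, at 17.2 ± 1.07 and 16.1 ± 0.427 TPM (-0.09). The primase subunits Prim1 and Prim2 were at -0.11 and 0.03, and Pola2 at -0.01, each with overlap.

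**Figure D3:**
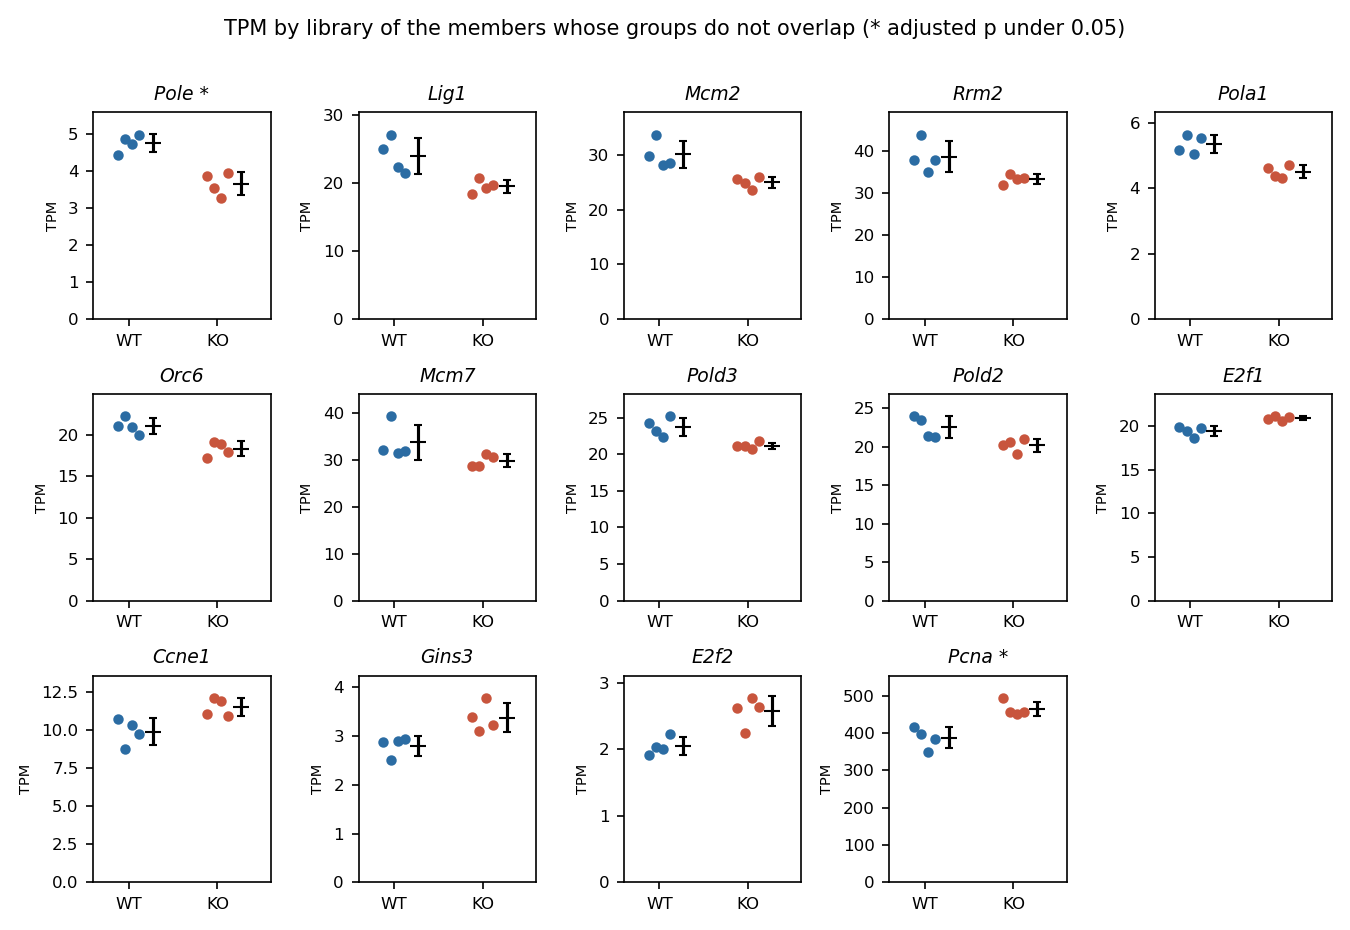
TPM (y axis, from 0) in each WT (blue) and KO (red) library for the 14 members whose groups do not overlap, in order of fold change, with mean and SD as black bars and an asterisk on the 2 members called. In the first 9 panels, from Pole to Pold2, all KO points are lower, and in the last 5, from E2f1 to Pcna, all are higher.

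Of the 11 genes for the clamp, its loader, single-strand binding and Okazaki fragment joining, 1 rose, 0 fell and 10 did not pass. Pcna, the ring that tethers polymerases (chromosome 2, 132249162 to 132253314, mm10), was at 417, 398, 350.3 and 384 TPM in the WT libraries and 494, 457, 450.2 and 455 in the KO libraries. All KO values exceeded all WT values, and KO replicate 1 stood above the other KO libraries. The ratio of means was 1.2 and the log2 fold change 0.26 (SE 0.0581, limma adjusted p = 0.0383). The call remained without WT replicate 1 or WT replicate 3 and ended without any of the other 6 libraries, with adjusted p from 0.063 (without WT replicate 2) to 0.0996 (without KO replicate 1).

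Lig1, the ligase that seals Okazaki fragments on Pcna, went the other way, at 24.98, 27.1, 22.3 and 21.4 TPM in WT and 18.4, 20.6, 19.2 and 19.6 in KO without overlap (-0.28, SE 0.0773, limma adjusted p = 0.0711). Fen1, the nuclease that trims the flap before Lig1 acts, was at 16.4 ± 1.04 and 16.8 ± 0.49 TPM (0.04, 95% interval -0.09 to 0.17). The 5 subunits of the clamp loader RFC lay between -0.19 (Rfc5) and 0.04 (Rfc1), and all overlapped. Rfc2, the most abundant of them, was at 73.1 ± 3.76 and 74.7 ± 1.88 TPM. Rfc5 varied most, from 10.8 to 16.9 TPM in WT and 9.82 to 14.8 in KO. The subunits of RPA, which coats single-stranded DNA, were at -0.02 (Rpa1), -0.05 (Rpa2) and -0.12 (Rpa3). Rpa2, the least abundant gene of this role, was at 12.1, 12.9, 13.3 and 12.8 TPM in WT and 10.5, 11.7, 15.2 and 12.2 in KO (-0.05, SE 0.097, adjusted p = 0.837 by limma), and KO values lay on both sides of the WT range.

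All 4 genes of nucleotide supply had a fold change below 0, and 0 passed the limma test after adjustment. In 3 of them (75%) the unadjusted p was under 0.05, against 22.3% of all genes tested. Rrm2, the subunit of ribonucleotide reductase that is made in S phase, was at 37.8, 43.8, 34.9 and 37.7 TPM in WT and 31.8, 34.5, 33.2 and 33.5 in KO, without overlap (-0.20, SE 0.068, limma adjusted p = 0.121). Its partner Rrm1 was at 50.2 ± 2.54 and 47.7 ± 1.42 TPM (-0.07), with overlap. Tk1, thymidine kinase and the most abundant of the 4, was at 54.01, 58.01, 49.4 and 51.04 TPM in WT and 49.5, 44.3, 46.96 and 47.9 in KO. Here KO replicate 1 exceeded WT replicate 3 by a small margin (-0.17, adjusted p = 0.14). Tyms, thymidylate synthase and the least abundant, was at 26.98, 29.2, 29.2 and 29.96 TPM in WT and 27.7, 25.6, 26.3 and 26.2 in KO (-0.12, SE 0.0483, adjusted p = 0.187).

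Of the 6 genes for cyclin E and E2F factors, 3 had a fold change above 0, each without overlap between groups. On TPM as deposited, every KO library was thus higher in 50% of this role, against 11.9% of all genes tested. Under median-of-ratios scaling, described further on, Ccne1 and E2f2 overlapped between groups. Over all 52 members, those with every KO library higher numbered 5 on TPM as deposited. They numbered 3, 4 and 3 under the 3 other scalings. Of the 6 genes, 0 passed the limma test, and 3 (50%) had an unadjusted p under 0.05, against 22.3% of all genes tested. Their median was 0.05, and a difference from the other roles was not tested. E2f2, an activating E2F, was at 1.92, 2.03, 2 and 2.23 TPM in WT and 2.62, 2.25, 2.77 and 2.64 in KO (0.23, SE 0.0806, limma adjusted p = 0.138). The lowest KO value (replicate 2) exceeded the highest WT value (replicate 4) by a narrow margin. E2f1, also an activator and the most abundant of the 6, was at 19.9, 19.4, 18.6 and 19.7 TPM in WT and 20.8, 21.1, 20.6 and 21.02 in KO, a small shift (0.10, adjusted p = 0.203). Ccne1, cyclin E1, was at 10.8, 8.74, 10.3 and 9.75 TPM in WT and 11.1, 12.1, 11.9 and 10.9 in KO (0.20, adjusted p = 0.141). Its paralog Ccne2 overlapped between groups, at 4.21 ± 0.698 and 4.2 ± 0.854 TPM (-0.01, 95% interval -0.33 to 0.31). The repressors E2f8, at 3.35 ± 0.41 and 2.95 ± 0.0896 TPM (-0.14), and E2f7, at 2.2 ± 0.504 and 2.07 ± 0.491 (-0.06), overlapped. The interval of E2f7, from -0.40 to 0.28, leaves changes of either sign possible.

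Among the 5 genes that copy chromatin, 3 were below 0 and 0 passed the limma test. An unadjusted p under 0.05 was found in 1 (20%), against 22.3% of all genes tested. Dnmt1, the maintenance DNA methyltransferase and the most abundant, was at 34.1, 35.7, 32 and 31.8 TPM in WT and 35.98, 34.6, 36.3 and 36.8 in KO. Only WT replicate 2 reached into the KO range (0.10, SE 0.0495, limma adjusted p = 0.258). Uhrf1, which guides Dnmt1 to new DNA, was at 20.2, 21.1, 20.4 and 19.6 TPM in WT and 17.7, 17.3, 19.2 and 19.9 in KO (-0.13, adjusted p = 0.224), with the sign opposite to that of Dnmt1 and with overlap. Of the subunits of the histone chaperone CAF-1, Chaf1b was at 18.1 ± 1.82 and 15.7 ± 1.27 TPM (-0.19). Chaf1a, the least abundant, was at 10.6, 17.2, 15.9 and 13.1 TPM in WT, a wide spread, and 14.9, 13.1, 12.9 and 15.6 in KO (0.01, SE 0.138, limma adjusted p = 0.98). Slbp, which binds histone messages, was at 23.8 ± 1.81 and 21.95 ± 0.608 TPM (-0.11).

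Other genes of the pathway and of the cell cycle were taken from lists. Of 49 further replication genes tested, 0 rose, 2 fell and 47 did not pass, with 34 below 0 and a median of -0.06. Every KO library was lower in 4 (8.16%, against 3.96% of all genes) and higher in 2 (4.08%, against 11.9%). The largest change of this list was upward, in Donson, with overlap and not called (4.6 ± 0.518 and 6.9 ± 1.62 TPM, 0.47, limma adjusted p = 0.0997). Recql4, a helicase needed at initiation, fell (4.77 ± 0.488 TPM in WT, 3.25 ± 0.365 in KO, log2 fold change -0.44, limma adjusted p = 0.0333). Cdca7, a partner of the remodeller Hells, fell from 7.97 ± 0.703 to 6.06 ± 0.312 TPM (-0.34, adjusted p = 0.0346). Leaving out 1 library at a time ended the call of Recql4 in 6 of 8 fits and that of Cdca7 in 7; the largest adjusted p, both without KO replicate 3, were 0.0874 and 0.0941. Of 32 G1/S control genes, 1 rose, 0 fell and 31 did not pass. An unadjusted p under 0.05 was found in 6 of the 32 (18.8%), against 22.3% of all genes tested. Of the 32, 14 were below 0 (43.8%, near the 42.5% of all genes tested), and the median was 0.03. The lowest fold change of this list was that of Cdkn1c, with overlap and not called (371 ± 55 and 260 ± 47.7 TPM, -0.52, limma adjusted p = 0.0882). The gene that rose was Ccnd3, a D-type cyclin that drives the G1 kinases, from 46.3 ± 3.2 to 57.1 ± 4.33 TPM (0.30, SE 0.0679, adjusted p = 0.0415), a call lost in 7 of 8 such fits (largest adjusted p 0.111, on leaving out KO replicate 4). Of 6 macrophage growth factor genes tested 0 passed the limma test, with 2 below 0 and a median of 0.05. An unadjusted p under 0.05 was found in 2 of them (33.3%). The most abundant were Csf1, the main growth factor, at 211 ± 12.4 and 191 ± 4.62 TPM, and Spi1, at 129 ± 12.4 and 133 ± 7.54. Csf1r, the receptor of Csf1, was higher in every KO library, at 100 ± 8.27 and 116.7 ± 3.4 TPM (0.22, limma adjusted p = 0.0651). Of 20 mitotic genes 0 passed, but 19 were below 0, and the median was -0.11. An unadjusted p under 0.05 was found in 3 of them (15%), against 22.3% of all genes tested. Every KO library was lower in 1 (5%, against 3.96% of all genes) and higher in 0. That gene was Mybl2, the lowest fold change of this list (9.89 ± 1.91 and 7.19 ± 0.712 TPM, -0.40, limma adjusted p = 0.103). Top2a was at 53.8 ± 4.46 and 46.3 ± 1.87 TPM (adjusted p = 0.0934) and Cdk1 at 88.9 ± 4.79 and 87.6 ± 3.47.

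The WT libraries differed among themselves in these genes. WT replicate 2 held the highest value of the 8 libraries in 23 of 52 members and was above the gene's own mean in 44. For the remaining WT libraries this number was 34 (replicate 1), 20 (replicate 3) and 26 (replicate 4), and the KO libraries ranged from 15 to 20. The median deviation of the members from their own mean was 0.12 on the log2 scale in WT replicate 2, 0.04 in WT replicate 1, -0.03 in WT replicate 3, near 0 in WT replicate 4, and from -0.06 to -0.02 in KO. Over all genes tested it was 0.03, -0.001, -0.07 and -0.03 in the same WT libraries, and from 0.008 to 0.02 in KO. The members thus lay above all genes in each WT library and below them in each KO library. The 20 mitotic genes placed WT replicate 2 highest as well (0.21, against -0.09 to 0.04 in the other 7 libraries). KO libraries were alike, with a median coefficient of variation of 4.56% over the members, against 7.48% in WT, and 40 of 52 members varied more in WT. Without WT replicate 2 the median fold change was -0.06 and 33 of 52 members were below 0. Without WT replicates 3 and 4, the libraries with the high pseudogene share, the median was -0.14, 40 members were below 0, Pole (adjusted p = 0.135) and Pcna (0.19, adjusted p = 0.0789) lost their calls, and Lig1 was called (-0.40, adjusted p = 0.0344). That is 1 of 52 members called (1.92%), against 2.72% of all genes tested on these 6 libraries. Groups did not overlap in 29 members (55.8%), against 35.8% of all genes.

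**Figure D4:**
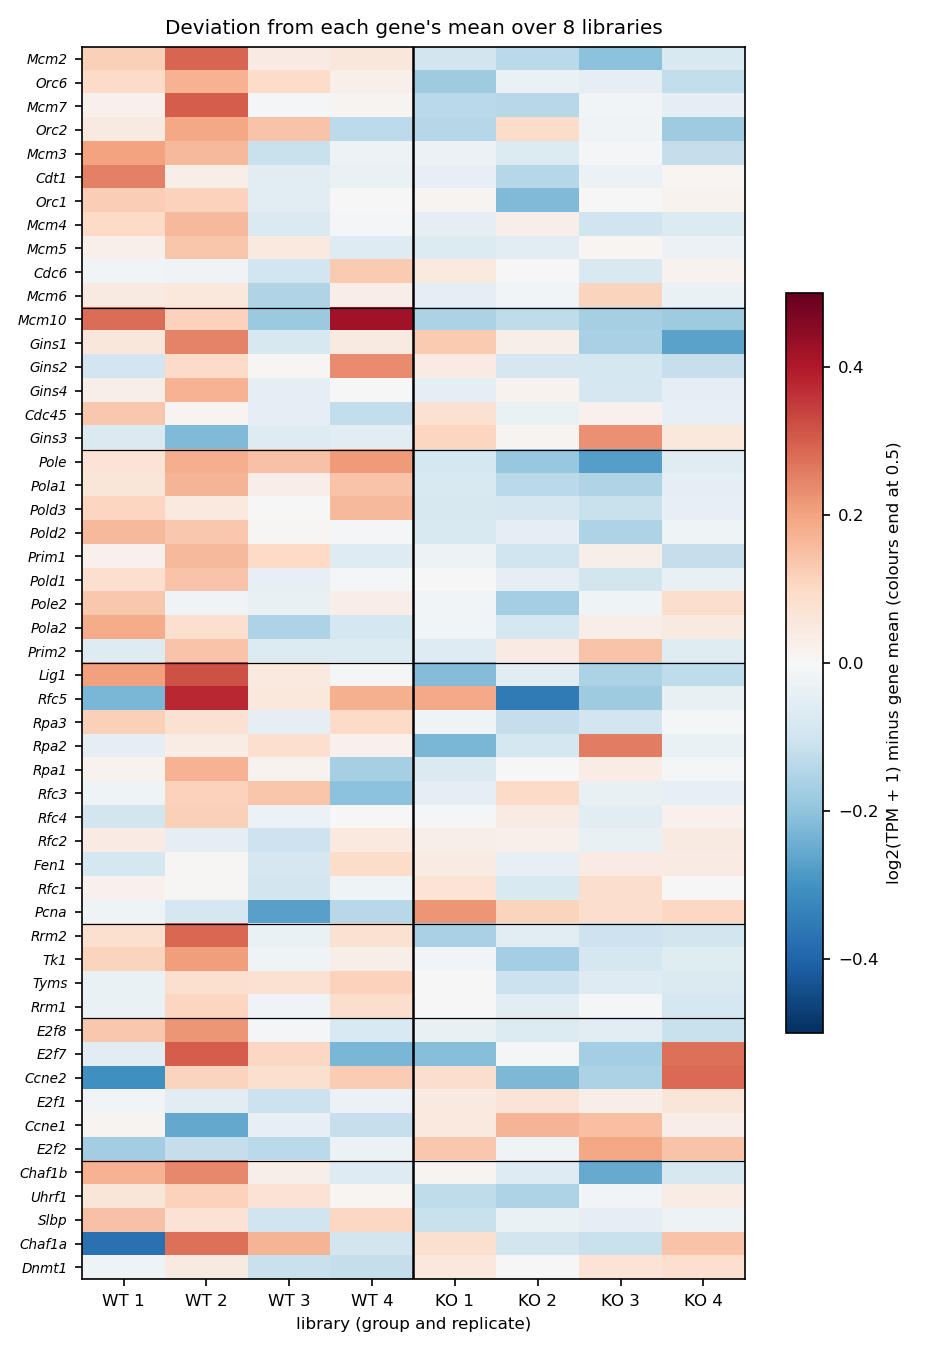
Deviation of log2(TPM + 1) from each gene's mean over the 8 libraries (colour, ending at 0.5 in both directions) for the 52 members (rows, by role and fold change) in WT and KO libraries (columns, divided by the black line). WT replicate 2 is red in 44 of 52 rows, and each KO library is above the gene's mean in 15 to 20.

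The number of members called depended on how libraries were scaled. TPM is scaled within a library, and median-of-ratios factors ran from 0.950 (WT replicate 3) to 1.02 (WT replicate 2). Under median-of-ratios scaling 8 members fell and 1 rose, under quantile normalization 5 fell and 1 rose, and with TPM rescaled over protein-coding genes 4 fell and 1 rose. The calls of Pole, Mcm2, Lig1, Orc6 and Pcna were made under all 3, with adjusted p for Mcm2 from 0.0179 to 0.0273 and for Lig1 from 0.0297 to 0.0446. Pola1 was called under the first and the second, and Pold3, Rrm2 and Tk1 under the first alone. Over all genes the split of rises and falls moved from 613 and 169 to 516 and 404 under median-of-ratios scaling, 440 and 254 under quantile normalization and 598 and 321 with TPM rescaled over protein-coding genes. The median of the members moved to between -0.12 and -0.11 under these scalings, and the members below 0 numbered 42 to 44. In the same order, members with every KO library lower numbered 18 (34.6%), 15 (28.8%) and 15 (28.8%), against 7.76%, 6.04% and 6.30% of all genes. Those with every KO library higher numbered 3 (5.77%), 4 (7.69%) and 3 (5.77%), against 8.94%, 9.22% and 10.6%.

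**Figure D5:**
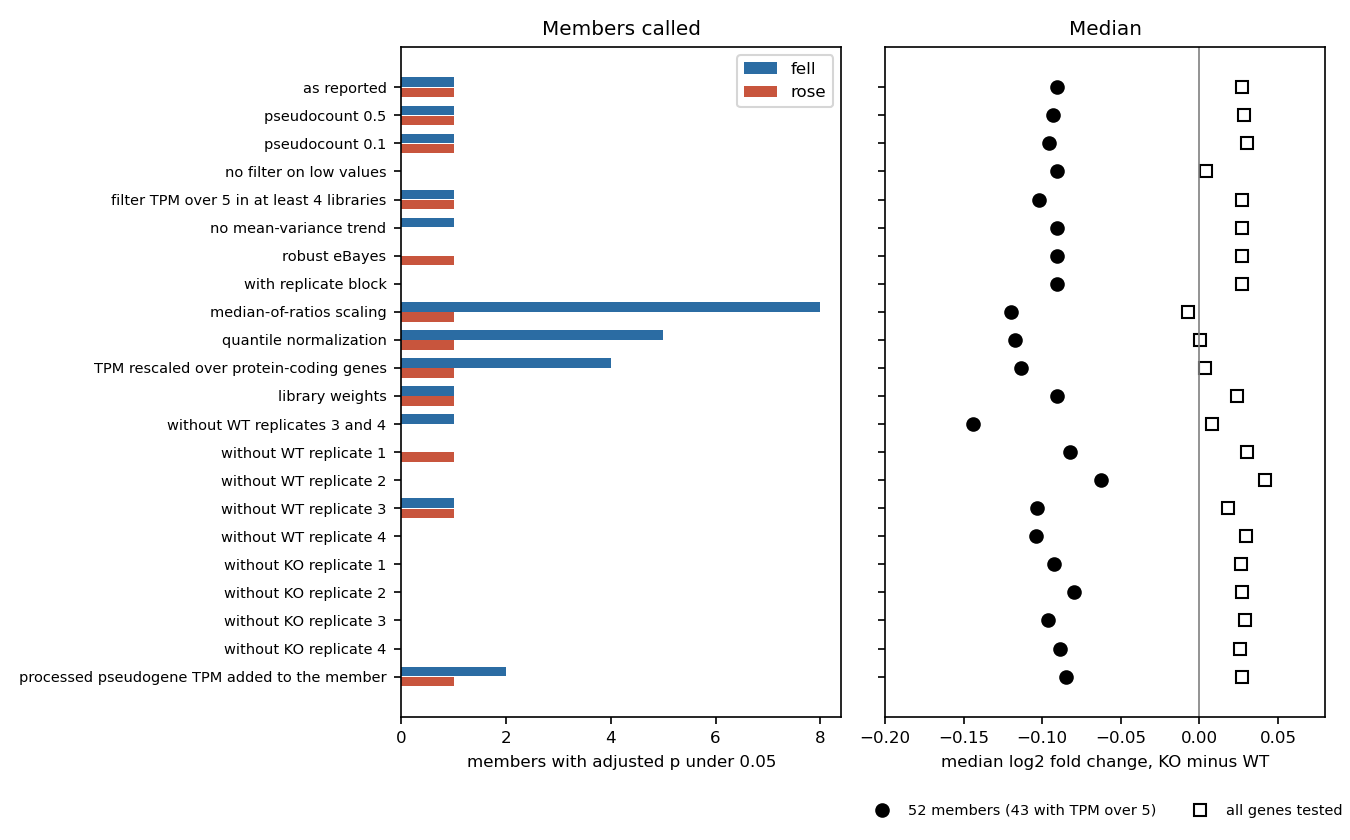
Number of members called lower (blue bars) and higher (red bars) in KO, at left, and the median log2 fold change of the members (filled points) and of all genes tested (open squares), at right, as reported and under each of 21 alternatives. The median of the members stays below 0, between -0.14 and -0.06, while the members called range from 0 to 9.

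Processed pseudogenes, copies of spliced messages, can take reads from their parents. For 13 members the annotation held a processed pseudogene at least 90% identical over at least 50% of its length, 16 in all. Pcna-ps2, 99.2% identical to Pcna over 781 bases, held 1.35 to 2.60 TPM, at most 0.568% of the sum of both. Gm48445, 98.4% identical to Rrm2 over 193 bases, was at 14.3, 11.6, 15.7 and 7.69 TPM in the WT libraries and 9.61, 5.06, 0 and 4.96 in the KO libraries. With pseudogene TPM added, the log2 fold change of Rrm2 was -0.40 (limma adjusted p = 0.02999). Gm6091, 99.4% identical to Tk1 over 165 bases, ran from 0 in WT replicate 1 to 328.5 TPM in WT replicate 2, more than Tk1 itself in 7 of 8 libraries. The level of Tk1 is therefore uncertain, and with pseudogene TPM added its fold change was 0.05 (adjusted p = 0.978). TPM divides reads by length, so a few reads on so short a copy give a high value and the sums do not equal summed reads.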

How the data were processed

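Per the labels' protocols, NEBNext Ultra libraries were sequenced on a NovaSeq as paired reads. The submitters' processing notes name build mm10, Salmon 1.2.0 and bcl2fastq; annotation and gene summing are not named there. The authors deposited 1 TPM value per gene and library. The unit was read from the values, each library having the same total within rounding. TPM keeps no depth, so no counting interval or detection limit can be given. Groups came from the labels.

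Of 55421 identifiers, 55240 matched a GENCODE M21 symbol. The 13933 genes above 1 TPM in 4 or more libraries were fitted with limma 3.58.1 in R 4.3.3 on log2(TPM + 1), with a mean-variance trend and group as the only term. This scale understates changes of low genes. P-values were adjusted by Benjamini-Hochberg over all genes tested, two-sided. Groups did not overlap where every KO library lay on 1 side of every WT library. The members and lists were chosen with earlier results of these data known. Values in every library are given for members called or without overlap and for the most and least abundant of each role. In simulated data with 13933 genes and 200 changed, the test recovered 34.9% at a fold of 1.25, 74.3% at 1.5 and 88% at 2. Pseudogenes were matched with BLAST 2.17.0. Alternatives covered the pseudocount, filter, variance model, library weights, scaling, replicate number and libraries left out; adding pseudogene TPM was chosen after seeing the data.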

Additional observations from a re-analysis of the deposited data

Results flagged for a closer look

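In 106 groups of 4 libraries (WT and KO for each member and for Smarcd1), 9 held 1 library whose gap to its nearest neighbour, divided by the range of the group, exceeded Dixon's 95% critical value for 4 samples. Chance gives about 1 in 20 such groups. WT replicate 2 accounted for 3 of them: Mcm7 at 39.3 TPM against 32.2 in the next library (ratio 0.919), Prim2 at 10.5 against 8.95 (0.981) and Gins3 at 2.5 against 2.88 (0.884). KO replicate 2 also accounted for 3: Orc1 at 1.44 TPM against 1.85 (0.932), Rfc3 at 16.8 against 15.2 (0.946) and Fen1 at 16.1 against 17.1 (0.98). Mcm6 in WT replicate 3 was at 35.7 TPM against 40.6 (0.887). Ccne2 in WT replicate 1 was at 3.17 TPM against 4.45 (0.871). Pcna in KO replicate 1 was at 493.7 TPM against 457.4 (0.835), and without that library Pcna was no longer called (limma adjusted p = 0.0996).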

How the results depend on the processing

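As reported, 782 genes and 2 members were called, and the median of the members was -0.09. Without a filter on low values 27510 genes were tested, and 364 genes and 0 members were called. The variance trend was also fitted anew on these genes, and the reason for the lower counts was not tested. Without WT replicates 3 and 4, 372 genes and 1 member were called, the median was -0.14, and 29 members (55.8%) had no overlap, against 35.8% of all genes for these 2 WT and 4 KO libraries. Members called numbered 1 without the variance trend, 1 with robust variances, 9 under median-of-ratios scaling, 6 under quantile normalization and 5 with TPM rescaled over protein-coding genes; the cause was not tested. Leaving out 1 library gave 156 to 679 genes, 0 to 2 members and medians from -0.10 to -0.06; genes were fewest without KO replicate 4, and members numbered 2 without WT replicate 3 (Pcna and Mcm10), 1 without WT replicate 1 (Pcna) and 0 without any other library. Same-numbered libraries had correlations of deviations from -0.11 to 0.01, and differently numbered ones from -0.13 to 0.11. With 4 libraries in each group, these values cannot show whether the replicate numbers pair them, and the labels do not say. With the replicate block 209 genes and 0 members were called, the median stayed at -0.09, and adjusted p was 0.0558 for Pcna and 0.116 for Pole. Neither pseudocount, the stricter filter nor library weights moved the number of members called, though Mcm2 was called beside Pcna with weights, where Pole was not, and with the stricter filter, which tested 43 members and left out Pole, and adding pseudogene TPM gave 3. Of 52 members 38 kept their sign under every alternative that tested them (21 for 43 members, 20 for 9), including the 14 without overlap, and 42 were called under none. Read depth is unknown, so its limit on low members cannot be stated.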
